A study of Mus musculus with 4 samples.

Results

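Cyp26a1, Cyp26c1 and Rarb, 3 genes that answer retinoic acid, were examined through the chromatin contacts around them in mouse embryonic stem cells (ESCs) and in motor neurons (MNs). All pairs of 8 kb bins with both bins inside one of 2 windows were taken, whatever their values. The Cyp26 window runs from 37400001 to 38000000 on chromosome 19 of mm10 (GRCm38, 600 kb) and holds Cyp26c1 and Cyp26a1. The Rarb window runs from 16200001 to 17000000 on chromosome 14 (800 kb). In ESCs 5732 of 23095428 listed pairs lay inside the windows, 2257 around the Cyp26 genes and 3475 around Rarb. In MNs 4988 of 21005697 pairs did, 2156 and 2832.

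Contacts were measured by Micro-C, in which chromatin is cross-linked, cut between nucleosomes with micrococcal nuclease, ligated and sequenced, so that a contact is a read pair joining 2 places. The study compared WT cells with cells lacking PATZ1, a zinc finger protein studied for its insulating action at Hox genes, in both cell states. Each of the 4 groups, WT and PATZ1 KO (KO below) in either state, had 1 library made from its own pool of cells. There were no replicates within a group, so no test was run and each interval below (95%) covers counting error only.

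All cells were of the E14 line. ESCs were kept with LIF and the 2i inhibitors of MEK1/2 and GSK3. For MNs, WT or PATZ1 KO ESCs were first grown into embryoid bodies. From Day 2 these received 1 µM all-trans retinoic acid and 0.5 µM of a smoothened agonist (SAG), so both MN groups, and neither ESC group, had been given the ligand to which the 3 genes respond. Cell state and exposure to retinoic acid therefore cannot be told apart here. The KO cells were derived from single clones edited with CRISPR, and which clone was used for Micro-C was not given in the sources used here. Micro-C measures no RNA, so the labelled cell types could not be checked against marker genes.

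Retinoic acid is made from vitamin A and enters the nucleus, where it binds receptors of the RAR family paired with RXR partners on DNA. The bound elements are typically direct repeats of a hexamer, and those with a spacer of 5 bases are the classical response elements. Rarb encodes such a receptor and is itself switched on by its ligand. Cyp26a1 and Cyp26c1 encode cytochrome P450 enzymes that break retinoic acid down, and Cyp26a1 is induced by it in turn, so that the signal limits itself. In the neural tube the ligand sets hindbrain and cervical identity and is used for that reason to make cervical MNs.

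The promoter sequences show this repeat directly. In the 250 bases before each start, taken from RefSeq (GRCm38.p6), direct repeats of the hexamers AGGTCA (or AGTTCA) and GGTTCA (or GGGTCA), in any combination and with 5 bases between, were searched on both strands. Of 32851 promoters 29 held such a repeat (0.0883%), and the promoters of Cyp26a1 and Rarb were among them, while that of Cyp26c1 held neither the repeat nor any of these hexamers. For comparison, at least 1 hexamer was present in 38.6% of promoters. Both repeats are shown with their flanks, each on the strand on which it reads as a direct repeat and with the hexamers in capitals.
Cyp26a1 (chr19:37697770-37697799, minus strand): acaaattAGTTCAcccaaAGTTCAtcttta
Rarb (chr14:16575506-16575535, minus strand): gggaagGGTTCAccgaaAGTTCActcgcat

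The repeat of Cyp26a1 lies 16 to 32 bases before its RefSeq start (19:37697808) and reads on the strand opposite to the gene. That of Rarb lies 37 to 53 bases before its RefSeq start (14:16575476) and reads along the gene. The 240 bases before the first annotated base of Cyp26a1 are shown on the gene's own strand, where the hexamers appear as their reverse complements in capitals. They are G- and C-rich and end in an A- and T-rich stretch that carries the repeat.
Cyp26a1 upstream (chr19:37697558-37697797, plus strand): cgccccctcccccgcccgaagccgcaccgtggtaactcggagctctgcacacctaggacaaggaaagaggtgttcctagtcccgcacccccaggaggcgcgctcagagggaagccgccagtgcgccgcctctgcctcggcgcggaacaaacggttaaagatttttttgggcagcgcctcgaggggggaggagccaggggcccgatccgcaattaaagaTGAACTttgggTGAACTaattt

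These letters describe sequence alone, since no binding was measured in the data used here. Over the whole 250 bases the Cyp26a1 promoter had 20 CpG sites and 61.6% G or C, and the Rarb promoter 16 and 58%. The Cyp26c1 promoter had 3 CpG sites and 51.2% G or C.

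The genes were placed by GENCODE M21. Cyp26c1 (ENSMUSG00000062432.4, 19:37685581-37693398) and Cyp26a1 (ENSMUSG00000024987.6, 19:37697798-37701536) both lie on the plus strand, with starts in bins 16 kb apart. Exoc6, a gene of the exocyst, ends just before Cyp26c1, and Myof, a membrane repair gene on the minus strand, begins to the right and reaches back to 19:37899036. Between Cyp26a1 and the 3′ end of Myof no protein-coding gene is annotated. Rarb (ENSMUSG00000017491.9, 14:16430839-16819156, minus strand) spans 388.318 kb and has 2 groups of protein-coding starts. The upstream start lies in the bin 16816001 to 16824000. The downstream start lies 248 kb further along the gene in the bin 16568001 to 16576000 and drives the shorter transcripts. Its annotated first bases, 14:16575543 to 14:16575827, lie before the RefSeq start, so the repeat (14:16575513-16575529) precedes the RefSeq start but falls inside the GENCODE transcripts. The 3′ end of Rarb overlaps that of Top2b, which encodes topoisomerase II beta and points the other way.

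Listed contacts summed to between 110991835 and 170946673 per library, and a listed pair inside the windows held a median of 3 or 4 contacts, so counts were summed over groups of pairs. Pairs were listed where each library of a cell state had a contact, and others were not. In the Cyp26 window 79.2% of possible pairs were listed in ESCs and 75.7% in MNs, and in the Rarb window 68.8% and 56.1%. The sums were divided by the number expected, which is the library's mean count for pairs equally far apart on that chromosome. A value of 1 is therefore the chromosome's average for that distance, and because unlisted pairs count as 0, values far from 1 at long distance are stretched, more so in MNs. Columns were read as WT first and KO second, from the order in the comparison's name. At the targeted gene, contacts of the Patz1 start bin with bins 2 to 22 bins away were 138 in the library read as KO against 246 in WT ESCs, and 86 against 159 in MNs.

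Both Cyp26 genes had raised contacts with the 3′ part of Myof and the bins before it in all 4 libraries. The bin of the Cyp26a1 start made 78 contacts in WT ESCs, 82 in KO ESCs, 52 in WT MNs and 56 in KO MNs with a block of 9 bins that starts at 19:37880001, downstream of the start. This block, chosen after its values were seen, covers the intergenic end and the 3′ part of Myof and is called the Myof block below. Observed over expected was 3.91 (3.09 to 4.88) in WT ESCs, 4.55 (3.62 to 5.65) in KO ESCs, 4.22 (3.15 to 5.53) in WT MNs and 4.71 (3.56 to 6.11) in KO MNs. All intervals overlapped. The log2 ratio of KO over WT stood at 0.22 (-0.25 to 0.68) in ESCs and 0.16 (-0.41 to 0.73) in MNs. That of MN over ESC was 0.11 (-0.43 to 0.63) in WT and 0.05 (-0.47 to 0.56) in KO, so the libraries were not told apart on this scale. With the expected number corrected for the coverage of each bin, KO over WT in MNs became 0.66 (0.09 to 1.23) and MN over ESC in WT turned to -0.23 (-0.77 to 0.29). Among 19779 protein-coding genes the same distances downstream had a median observed over expected of 0.738 to 0.848 in the 4 libraries, and between 0.0607% and 0.642% of genes stood as high as Cyp26a1. Because the block was chosen after its values were seen, low shares are partly built in.

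Cyp26c1 contacted the same block less evenly. Its start bin made 65 contacts in WT ESCs, 39 in KO ESCs, 42 in WT MNs and 35 in KO MNs, with observed over expected of 3.51, 2.32, 3.66 and 3.16. The KO library was lowest in ESCs, where the log2 ratio of KO over WT was -0.59 (-1.21 to -0.00039), and it was -0.21 (-0.90 to 0.47) in MNs. Corrected for bin coverage, these were -0.71 (-1.33 to -0.12) and 0.19 (-0.50 to 0.87). Of 19718 genes, 0.365% to 2.59% reached these levels, shares that carry the same choice of block. The next bin, from 19:37688001, holds the rest of Cyp26c1 and went the other way in ESCs. It made 46 contacts with the block in WT ESCs and 60 in KO ESCs, with observed over expected of 2.395 and 3.45. The lower KO value in ESCs thus holds for the start bin and not for the whole gene.

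Seen from the Myof block, contacts were not limited to the Cyp26 genes. Averaged over the 4 libraries, the 13 bins left of the Cyp26a1 start and its own bin stood at 2.59 to 4.35, apart from 1 bin within Exoc6 at 0.28. Past Cyp26a1 the value was 4.15 in the next bin, 2.48 in the bin after it and 1.05 at 88 kb to the right. Between them the bin at 48 kb stood at 0.68. In WT MNs the Cyp26a1 bin (4.22) stood below the bin at 96 kb to the left (5.57). The low bin within Exoc6 was not low with the Myof block alone. With the Cyp26a1 start it shared 1, 1, 0 and 0 contacts in WT ESCs, KO ESCs, WT MNs and KO MNs. The expected numbers were 5.05, 4.44, 3.35 and 3.15.

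Raised contacts also joined the 5′ end of Exoc6 to Myof. In the 3 by 3 bins joining 19:37552001-37576000 to 19:37920001-37944000, 368 kb apart, there were 48 contacts in WT ESCs, 50 in KO ESCs, 60 in WT MNs and 58 in KO MNs. More contacts were thus counted in both MN libraries although these were the shallower. Observed over expected was 4.70 (3.46 to 6.23) and 5.27 (3.91 to 6.95) in ESCs against 8.88 (6.78 to 11.4) and 8.67 (6.58 to 11.2) in MNs. The log2 ratio of MN over ESC was 0.92 (0.35 to 1.498) in WT and 0.72 (0.15 to 1.29) in KO, while KO over WT gave 0.17 (-0.43 to 0.77) in ESCs and -0.04 (-0.58 to 0.51) in MNs. These bins were also picked after their values were seen. They are centred on the pair that stood highest in MNs (bins from 19:37560001 and 19:37928001), so the MN over ESC ratios and their intervals carry that choice.

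**Figure D1:**
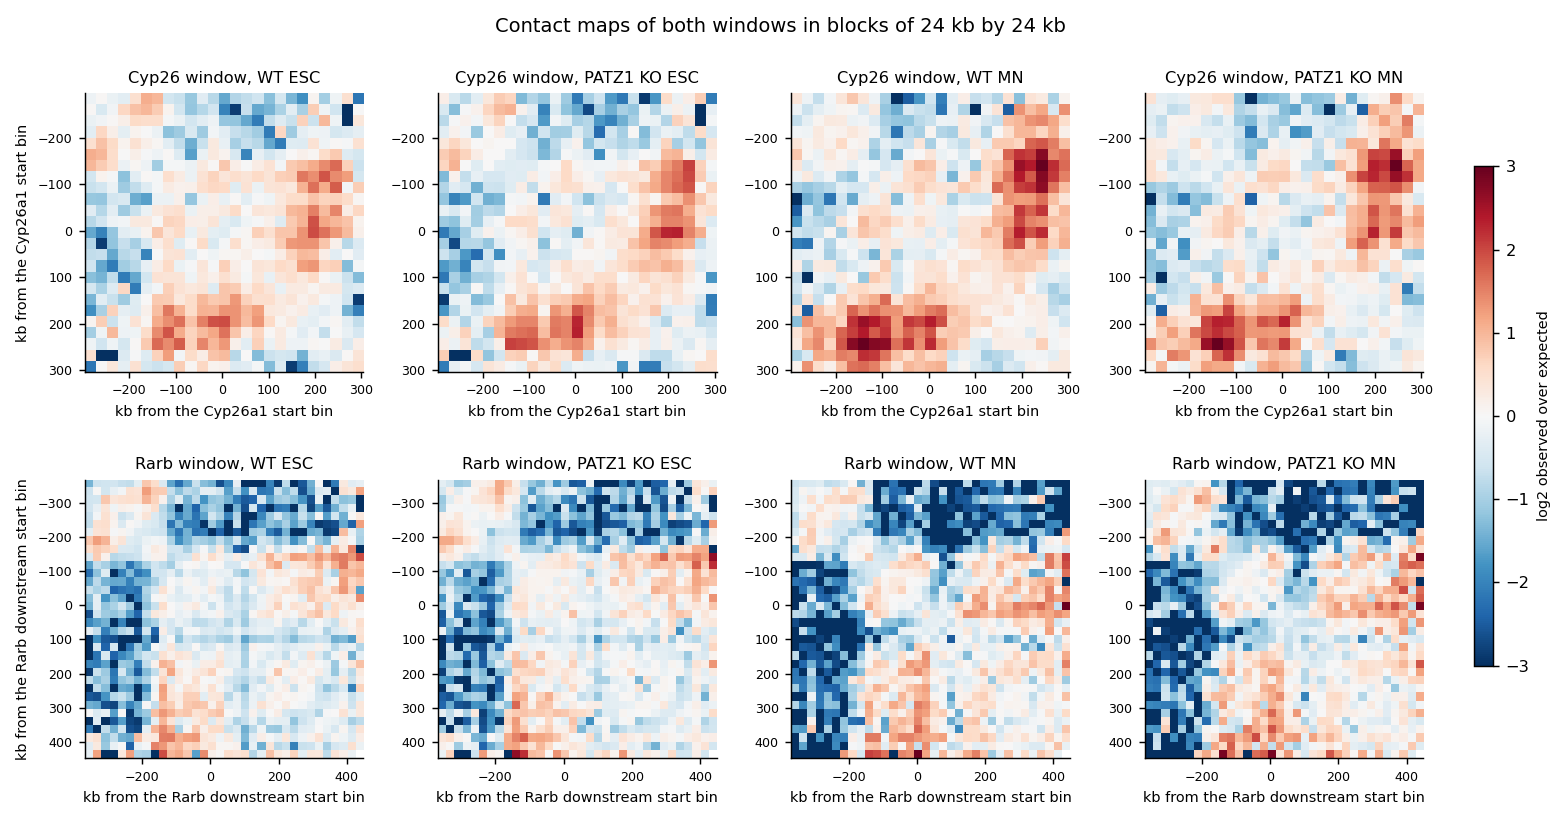
Contact maps of the Cyp26 window (top) and the Rarb window (bottom) in the 4 libraries, in blocks of 24 kb by 24 kb. Both axes give kb from the bin of the Cyp26a1 start or of the Rarb downstream start, and colour gives log2 observed over expected, red above and blue below the chromosome's average and limited at 3 either way. The red corner at about 200 kb to the right of Cyp26a1 is present in every library and is darkest in MNs where it meets the 5′ part of Exoc6, and the blue blocks at the left of the Rarb maps are pairs across the 3′ end of Rarb.

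Partner bins at least 40 kb away with a mean count of at least 10 per cell state were ranked for each start. For Cyp26a1 in ESCs the highest were 2 bins inside Myof, 232 and 224 kb away, and an intergenic bin before Myof, with mean observed over expected of 5.98, 5.74 and 5.51. In MNs only the bin at 192 kb passed the count, with 13, 9, 8 and 14 contacts in WT ESCs, KO ESCs, WT MNs and KO MNs, and its mean over both MN libraries was 7.43. For Cyp26c1 the highest partner in ESCs that passed the count was a bin inside Exoc6, 72 kb upstream. It had 12 contacts in WT ESCs and 10 in KO ESCs and a mean of 2.13. Bins on the Myof side stood higher but missed the count. The bin at 200 kb had 11 contacts in WT ESCs and 7 in KO ESCs, where 2.37 and 2.155 were expected. No partner of the Rarb downstream start passed the count in either cell state, and those of the upstream start reached at most 1.79, at a bin inside Rarb 64 kb away.

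The starts of the 2 Cyp26 genes shared fewer contacts than expected in ESCs. In WT ESCs the interval (8.4 to 24.7 contacts) just took in the 24.6 expected. The bins of these starts, 16 kb apart, shared 15 contacts in WT ESCs, 10 in KO ESCs, 24 in WT MNs and 14 in KO MNs, or 0.61, 0.46, 1.41 and 0.87 of the expected number. The WT MN library was the highest of the 4. MN over ESC was 1.21 (0.22 to 2.24) on the log2 scale in WT and 0.91 (-0.36 to 2.25) in KO. In WT this pair was 1 of 6 at least 2-fold higher among 229 pairs of the window with a mean count of at least 10. That share was 2.62% beside 5.99% over the genome, and 2 of the 229 passed with correction for bin coverage. KO over WT gave -0.41 (-1.73 to 0.84) in ESCs and -0.70 (-1.77 to 0.31) in MNs, so the genotypes were not told apart at this depth. The starts of Hhex, a homeobox gene at the left of the window, and Exoc6, 112 kb apart, shared 10 contacts in WT ESCs and 13 in KO ESCs (2.57 and 3.70 of the expected number). This pair was not listed in MNs, so at least 1 of the MN libraries had no contact there.

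Promoter contacts were summed over bins 2 to 22 bins (16 kb and more) away on both sides. The start of Cyp26a1 made 333 contacts in WT ESCs, 268 in KO ESCs, 249 in WT MNs and 187 in KO MNs. Observed over expected was 1.248 (1.12 to 1.39), 1.14 (1.01 to 1.28), 1.37 (1.21 to 1.55) and 1.09 (0.94 to 1.26). WT MNs stood highest, followed by WT ESCs, KO ESCs and KO MNs, and the intervals of neighbours in this order overlapped. MN over ESC in WT, 0.14 (-0.11 to 0.38), turned to -0.10 (-0.34 to 0.14) when corrected for bin coverage, so this order holds for the uncorrected scale only. The log2 ratio of KO over WT stood at -0.13 (-0.37 to 0.10) in ESCs and -0.33 (-0.61 to -0.05) in MNs.

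Cyp26c1 made 294, 262, 250 and 173 contacts in the same order of libraries. Observed over expected was 1.10 (0.98 to 1.23), 1.11 (0.98 to 1.26), 1.38 (1.21 to 1.56) and 1.01 (0.86 to 1.17), with WT MNs highest. Its interval overlapped those of both ESC libraries but not that of KO MNs. KO over WT gave 0.015 (-0.23 to 0.26) in ESCs and -0.45 (-0.74 to -0.16) in MNs. MN over ESC was 0.32 (0.07 to 0.57) in WT and -0.14 (-0.43 to 0.14) in KO. Corrected for bin coverage, the WT value became 0.097 (-0.15 to 0.35), an interval that spans 0.

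Over 20683 protein-coding genes the median log2 ratio of KO over WT was -0.19 in MNs, and 30.7% of genes stood lower than Cyp26a1 and 16.9% lower than Cyp26c1. When the expected number was also corrected for the coverage of each bin, the ratio of Cyp26a1 in MNs turned to 0.08 (-0.20 to 0.36), that of Cyp26c1 became -0.15 (-0.44 to 0.14), and the median of all genes turned to 0.11. Both intervals then spanned 0, and the direction at Cyp26a1 turned.

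None of the 4 starts passed 1.5-fold in any comparison. Of all genes 1.64% passed it for KO over WT in ESCs, 8.87% for KO over WT in MNs, 11.6% for MN over ESC in WT and 3.73% for MN over ESC in KO. By distance, KO over WT of both Cyp26 starts in MNs was lowest at 48 to 96 kb, though the intervals of the bands overlapped. At 48 to 96 kb observed over expected of Cyp26a1 was 1.298, 1.21, 1.19 and 0.76 in WT ESCs, KO ESCs, WT MNs and KO MNs, with KO over WT in MNs of -0.65 (-1.26 to -0.06), while at 13 to 22 bins away it was -0.27 (-0.76 to 0.21). On the downstream side of Cyp26c1 at 48 to 96 kb there were 28 contacts in WT MNs and 12 in KO MNs (1.03 and 0.47 of the expected number). Its KO over WT ratio, -1.14 (-2.25 to -0.11), was the lowest in MNs over all starts, sides and bands. The band at 48 to 96 kb was computed neither over all genes nor with correction for bin coverage.

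The contacts of the 2 Cyp26 starts leaned to opposite sides in ESCs. Upstream bins took 60.9% (55.1 to 66.5) of the contacts of Cyp26c1 in WT ESCs and 60.7% (54.5 to 66.6) in KO ESCs. They took 42.6% (37.3 to 48.1) and 40.3% (34.4 to 46.4) of those of Cyp26a1. In MNs the shares were 54% (47.6 to 60.3) and 62.4% (54.8 to 69.7) for Cyp26c1 and 49.8% (43.4 to 56.2) and 51.3% (43.9 to 58.7) for Cyp26a1, in WT and KO. Cyp26c1 thus leaned towards Exoc6 in both ESC libraries and in KO MNs, and Cyp26a1 towards the stretch before Myof in both ESC libraries. In MNs the intervals of Cyp26a1 took in an even split.

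**Figure D2:**
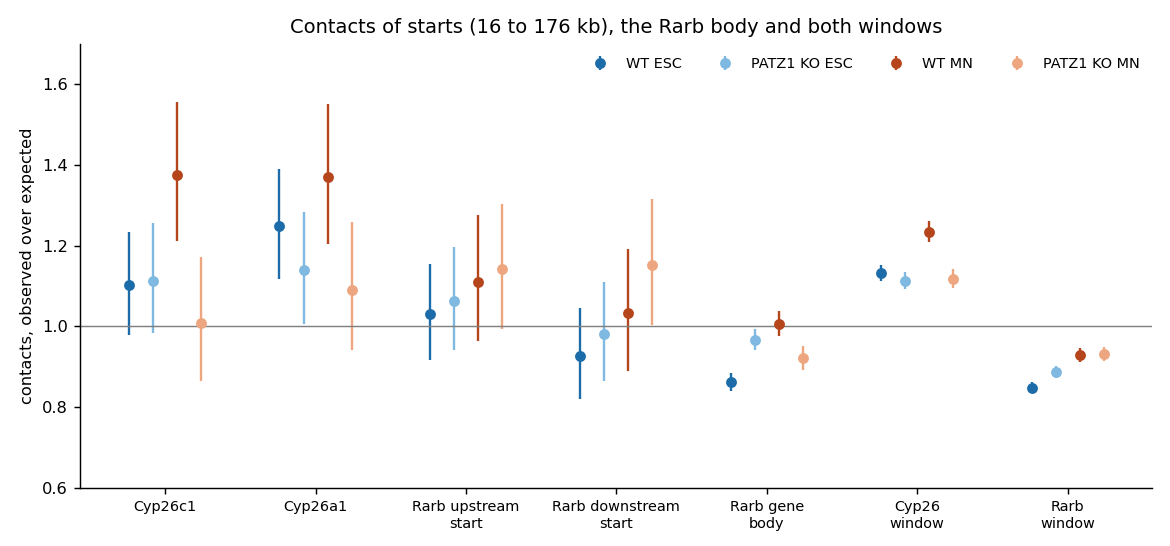
Observed over expected contacts of the 4 starts (2 to 22 bins away), the Rarb gene body and both windows; each point is 1 library and bars are 95% counting intervals. On this uncorrected scale WT MNs are highest for both Cyp26 genes, and for both Rarb starts the bars of all 4 libraries overlap.

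The whole Cyp26 window held 12465 contacts at least 2 bins apart in WT ESCs, 10875 in KO ESCs, 9181 in WT MNs and 7889 in KO MNs. Observed over expected was 1.13, 1.11, 1.24 and 1.12, above the chromosome's average in every library and highest in WT MNs. KO over WT gave -0.02 (-0.06 to 0.01) in ESCs and -0.14 (-0.19 to -0.10) in MNs, and MN over ESC was 0.13 (0.09 to 0.16) in WT and 0.01 (-0.03 to 0.05) in KO. With correction for bin coverage the KO over WT ratio in MNs turned to 0.08, and MN over ESC became 0.018 (-0.021 to 0.057) in WT and 0.12 (0.076 to 0.16) in KO, the reverse order. No comparison passed 1.5-fold, which windows of this length did in 0.677% of cases for KO over WT in ESCs, 1.06% in MNs, and 4.69% and 0.363% for MN over ESC in WT and KO.

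The Rarb downstream start differed between the cell states at long distance. With bins 13 to 22 bins away on either side, a range called long distance below and chosen after its values were seen, its bin made 69 contacts in WT ESCs, 65 in KO ESCs, 77 in WT MNs and 75 in KO MNs. The shallower MN libraries thus held the higher counts. Observed over expected was 0.94 and 0.97 in ESCs and 1.87 and 1.77 in MNs, a log2 ratio of MN over ESC of 1.00 (0.51 to 1.49) in WT and 0.86 (0.37 to 1.37) in KO. Both genotypes showed the same direction, and KO over WT gave 0.05 (-0.46 to 0.56) in ESCs and -0.08 (-0.56 to 0.40) in MNs. Over 20132 genes the median for the same distances was 0.14 in WT and 0.08 in KO, with 27.8% and 23.4% of genes past 1.5-fold either way. Of these genes 4.03% stood higher than Rarb in WT and 5.12% in KO. Because the band was chosen after its values were seen, low shares are partly built in.

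The difference was seen on both sides of the start. Towards the 3′ end of Rarb, observed over expected was 1.00, 1.16, 1.94 and 2.07 in WT ESCs, KO ESCs, WT MNs and KO MNs. Into the part of the gene upstream of it the values were 0.87, 0.78, 1.79 and 1.46. Nearer the start the cell states were not separated in this way. At 16 to 40 kb MN over ESC was -0.37 (-0.82 to 0.08) in WT and -0.05 (-0.47 to 0.36) in KO. Other settings left the long-distance ratios between 0.78 and 1.00 in WT and between 0.65 and 0.86 in KO. The lowest values came from scaling to library totals, and pairs listed in both cell states alone gave 0.88 and 0.66. Neighbouring 24 kb blocks that do not hold the start also differed between the cell states. Between the blocks at 16 and 160 kb from the start bin, observed over expected was 1.375, 1.61, 2.475 and 1.92 in the order above, higher in MNs. Between those at -32 and 112 kb it was 0.69, 0.86, 0.34 and 0.60, lower in MNs. Whether the difference is particular to the start was not tested.

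The upstream Rarb start, which no searched sequence covered, was measured in the same band. It made 67, 80, 40 and 48 contacts at long distance. MN over ESC was 0.09 (-0.51 to 0.68) in WT and -0.08 (-0.63 to 0.45) in KO. KO over WT in ESCs was 0.39 (-0.09 to 0.88) there, with 4.29% of genes higher. The intervals of the 2 starts for MN over ESC overlapped, and the difference between them was not tested. The pair joining both starts, 248 kb apart, held 5, 1, 4 and 4 contacts, too few to compare. At the Cyp26a1 start, whose promoter holds the repeat, MN over ESC at long distance was 0.26 (-0.16 to 0.69) in WT and -0.04 (-0.51 to 0.42) in KO. At Cyp26c1, whose promoter lacks it, the values were 0.46 (-0.02 to 0.93) and 0.14 (-0.39 to 0.66). Any relation of the repeat to these contacts was not tested.

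**Figure D3:**
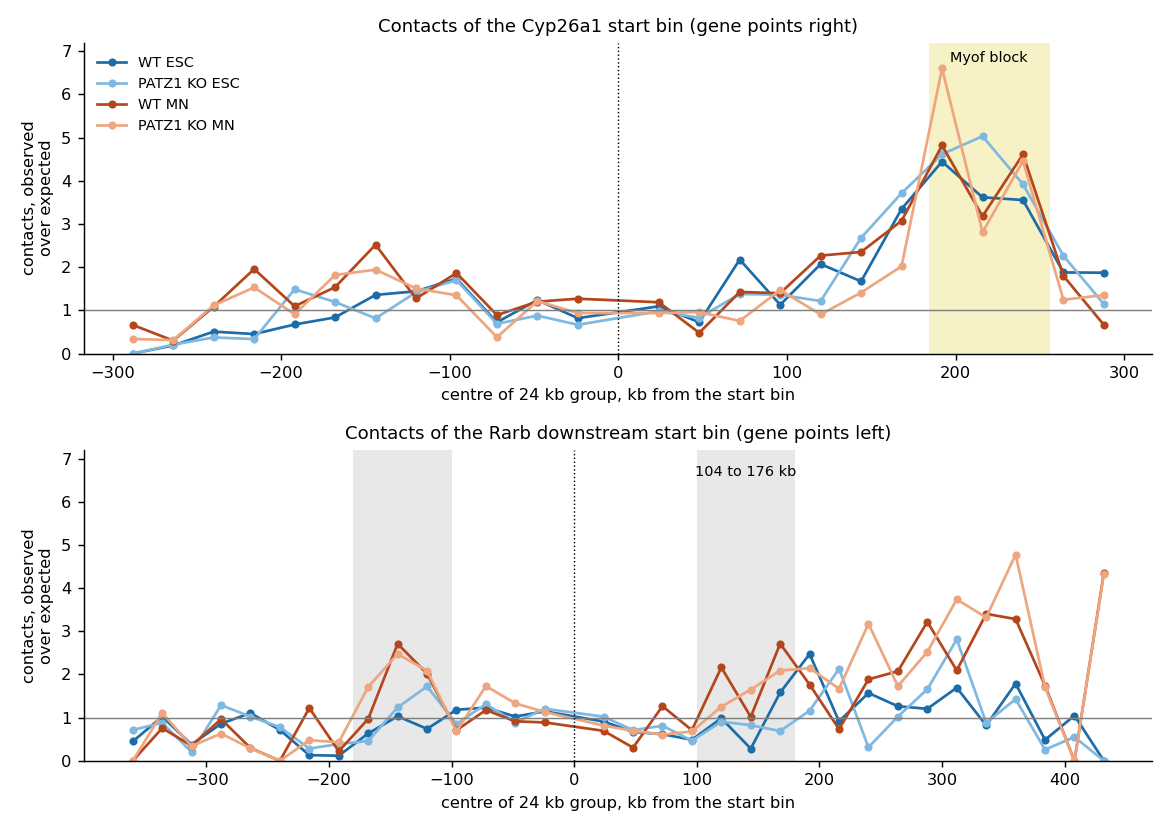
Observed over expected contacts of the Cyp26a1 start bin (top) and the Rarb downstream start bin (bottom) across their windows, in groups of 3 bins (24 kb), against kb from the start bin; lines are the 4 libraries. All points of the 4 lines inside the shaded Myof block stand above 2.8. In the shaded long-distance bands of the Rarb panel most points of the MN lines stand above the ESC lines. Beyond about 200 kb each Rarb point rests on few contacts.

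Over all 2 to 22 bins the Rarb starts stayed close to 1. The downstream start made 269, 255, 186 and 217 contacts in WT ESCs, KO ESCs, WT MNs and KO MNs, with observed over expected of 0.93, 0.98, 1.03 and 1.15. The upstream start made 299, 276, 200 and 215, or 1.03, 1.06, 1.11 and 1.14. On this uncorrected scale KO MNs stood highest and WT ESCs lowest in both cases, and all intervals overlapped. KO over WT was 0.08 and 0.16 at the downstream start and 0.04 and 0.04 at the upstream start, in ESCs and MNs, and every interval included 0. Corrected for bin coverage, KO over WT in ESCs at the downstream start turned to -0.14 (-0.39 to 0.11). MN over ESC in WT there turned to -0.097 (-0.37 to 0.18), so WT ESCs were no longer lowest at that start.

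The gene body of Rarb went opposite ways with genotype in the 2 cell states. Pairs within it numbered 5599 contacts in WT ESCs, 5642 in KO ESCs, 4032 in WT MNs and 3859 in KO MNs, with observed over expected of 0.86, 0.97, 1.01 and 0.92. KO over WT gave 0.17 (0.11 to 0.22) in ESCs and -0.13 (-0.19 to -0.06) in MNs, and MN over ESC was 0.23 (0.17 to 0.28) in WT and -0.07 (-0.13 to -0.01) in KO. Across 3699 gene bodies the medians were -0.01, -0.09, 0.12 and 0.03 in these comparisons. The KO over WT value of Rarb in ESCs was higher than that of 90.2% of gene bodies, while in MNs 45% of gene bodies stood lower than Rarb. None passed 1.5-fold, against 1.35% and 4.6% of gene bodies for KO over WT in ESCs and MNs and 5.73% and 3.22% for MN over ESC in WT and KO. With correction for bin coverage all 4 values changed sign, to -0.05, 0.09, -0.07 and 0.07.

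Split at the downstream start, the gene has a 136 kb part shared by all its protein-coding transcripts and a 240 kb part transcribed from the upstream start alone. Within the shared part observed over expected was 0.89, 1.07, 1.13 and 0.98 in WT ESCs, KO ESCs, WT MNs and KO MNs. Within the upstream part it was 0.81, 0.89, 1.01 and 0.89. Between the parts it was 0.91, 1.03, 0.90 and 0.88. KO over WT in ESCs was 0.26 (0.14 to 0.37) within the shared part, 0.13 (0.05 to 0.21) within the upstream part and 0.18 (0.07 to 0.28) between them, so the 3 groups of pairs ran the same way. In MNs the same ratios were -0.20 (-0.33 to -0.06), -0.18 (-0.27 to -0.09) and -0.03 (-0.17 to 0.10). With correction for bin coverage the ratios turned to -0.04, -0.03 and -0.06 in ESCs and to 0.08, 0.03 and 0.21 in MNs.

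The Rarb window as a whole lay below the chromosome's average. It held 15266, 14455, 10116 and 10572 contacts, with observed over expected of 0.85, 0.89, 0.93 and 0.93. KO over WT gave 0.07 (0.03 to 0.10) in ESCs and 0.003 (-0.04 to 0.04) in MNs, and MN over ESC was 0.13 (0.10 to 0.17) in WT and 0.07 (0.03 to 0.11) in KO. After the coverage correction, KO over WT in ESCs and MN over ESC in WT turned to -0.05 and -0.04, and KO over WT in MNs became 0.060 (0.020 to 0.099). Scaled to library totals, MN over ESC became 0.029 (-0.007 to 0.066) in WT and turned to -0.008 (-0.044 to 0.028) in KO. Of windows of this length 0.485%, 0.712%, 4.89% and 0.129% passed 1.5-fold in these comparisons, and the Rarb window passed it in none.

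The strongest border of either window lay where Rarb and Top2b end. The insulation score, the log2 of the mean count in a 200 kb square spanning a bin over the chromosome's mean, had its minimum in the bin 14:16424001-16432000 in all 4 libraries. It was -0.99 in WT ESCs, -1.06 in KO ESCs, -1.20 in WT MNs and -1.26 in KO MNs, lower in MNs than in ESCs in both genotypes. Scores to the left of the minimum were lower in MNs too, so this was not limited to the border. In the bin from 14:16376001, within Top2b, they were -0.62 in both ESC libraries, -1.17 in WT MNs and -1.02 in KO MNs. Contacts across the minimum, from the Ngly1 and Top2b side to the Rarb side, stood at 0.50, 0.48, 0.38 and 0.39 of the expected number. MN over ESC was -0.42 (-0.54 to -0.29) in WT and -0.33 (-0.45 to -0.20) in KO. Here 39.9% of pairs were listed in ESCs and 21% in MNs, and among pairs listed in both cell states the ratio turned to 0.26 and 0.38. That filter keeps only pairs with contacts in both MN libraries, which by itself raises MN over ESC. The ratio thus depends on how unlisted pairs are treated, and the filter cannot decide its direction.

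A further minimum beyond the upstream start of Rarb was called in ESCs alone. It lay at 14:16864001-16872000 in WT ESCs (-0.33) and 14:16848001-16856000 in KO ESCs (-0.23). In MNs the scores of these bins were 0.08 and 0.05 in WT and 0.17 and 0.13 in KO. Both ESC libraries thus stood below the chromosome's mean and both MN libraries above it in this stretch.

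In the Cyp26 window minima lay in Myof and at the 5′ end of Exoc6. In Myof they lay at 19:37920001 (bin start) in WT ESCs (-0.47) and at 19:37936001-37944000 in KO ESCs (-0.45), WT MNs (-0.42) and KO MNs (-0.53). At the 5′ end of Exoc6 minima were called in WT ESCs (-0.52), KO ESCs (-0.68) and WT MNs (-0.56). None was called in KO MNs, where the score of these bins was between -0.48 and -0.49. A minimum at Kif11, near the left edge of the window, was called in WT MNs (-0.57) and KO MNs (-0.62) only, with -0.39 and -0.56 in the same bin in WT and KO ESCs.

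**Figure D4:**
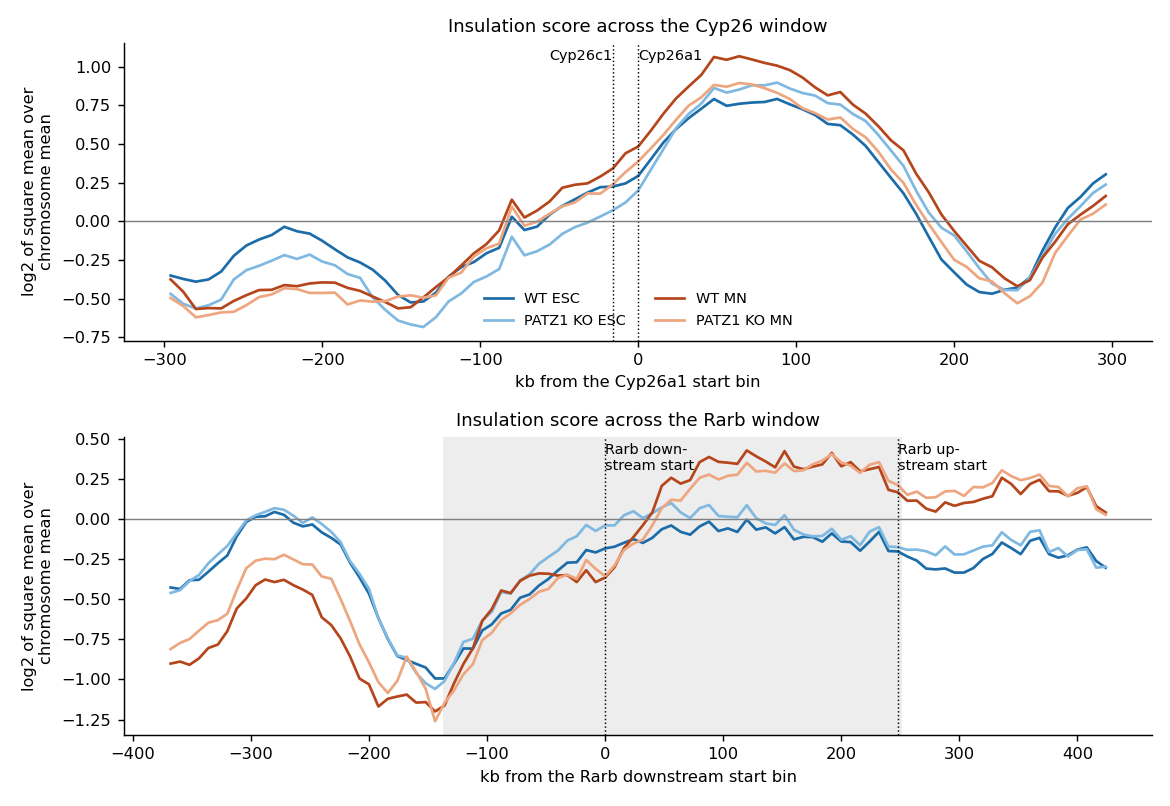
Insulation score across the Cyp26 window (top) and the Rarb window (bottom) against kb from the bin of the Cyp26a1 start or the Rarb downstream start; dotted lines mark start bins, grey shading the Rarb gene, and lines the 4 libraries. The lowest point of the Rarb panel, at the 3′ end of the gene, is shared by all libraries, and from 56 kb upstream of the downstream start onwards both MN lines stand above both ESC lines.

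At single pairs the counts were small. Pairs with a mean count of at least 10 in the libraries compared and at least 2-fold apart were counted. For KO over WT in ESCs, 17 of 294 tested pairs of the Cyp26 window were higher and 12 lower, and 10 and 11 of 294 in the Rarb window, beside 4.11% higher and 4.4% lower over the genome. In MNs the Cyp26 window had 6 higher and 10 lower of 150 and the Rarb window 18 and 5 of 193, beside 6.32% and 6.34%. For MN over ESC in WT there were 6 and 18 of 229 and 18 and 6 of 241, beside 5.99% and 7.07%. In KO there were 8 and 11 of 180 and 19 and 10 of 236, beside 4.72% and 5.65%. Some of these splits changed with the correction for bin coverage. With it, the Rarb window had 6 higher and 12 lower for MN over ESC in WT and 3 and 16 for KO over WT in ESCs, and the Cyp26 window had 12 and 5 for KO over WT in MNs. The shares over the genome under the same correction were 4.24% and 5.84%, 3.598% and 3.801%, and 4.299% and 3.699%.

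The pairs named here were among those with the most contacts past the fold. They were thus chosen by their own ratios, and their intervals do not allow for that choice. A pair inside Top2b, 16 kb apart (bins from 14:16392001 and 14:16408001), held 32, 31, 19 and 52 contacts in WT ESCs, KO ESCs, WT MNs and KO MNs. KO over WT was 1.36 (0.58 to 2.20) there in MNs. The bin of the upstream Rarb start and the bin 16 kb further upstream shared 33, 11, 18 and 13 contacts, with KO over WT of -1.42 (-2.55 to -0.39) in ESCs. A pair inside Myof, 16 kb apart (bins from 19:37928001 and 19:37944001), held 29, 16, 28 and 10 contacts, with KO over WT of -1.41 (-2.62 to -0.32) in MNs. No pair 40 kb or more apart had a mean count of at least 20 in either window, so none could be looked at there for local maxima at 2 times the expected number or more. At a mean of at least 10, such maxima were 11 of 106 tested pairs in ESCs and 4 of 11 in MNs in the Cyp26 window. In the Rarb window they were 7 of 63 and 3 of 16, beside 8.29% and 13.6% of tested pairs over the genome. The highest joined Exoc6 (bin from 19:37560001) to Myof (bin from 19:37928001) with 4, 5, 9 and 13 contacts.

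Other genes of the pathway were examined by the same promoter measure, in a list of 27 genes that were all measured and that included the 3 members, with Rarb taken at its upstream start. For KO over WT in ESCs none of the 27 passed 1.5-fold, beside 1.64% of all genes, and the median log2 ratio was 0.04 beside -0.06 over all genes. The lowest was Rxrb, a partner receptor, at -0.45. In MNs 2 were lower and none higher, the partner receptors Rxra (-0.65) and Rxrb (-0.62), and the median was -0.33 beside -0.19. Of all genes 423 were higher and 1411 lower, 8.87% either way, a share that the list did not exceed.

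For MN over ESC in WT 3 genes of the list were higher and none lower, with a median of 0.23 beside 0.14 over all genes. Of all genes 1446 were higher and 946 lower, 11.6% either way, a share that the list did not exceed. Among the 3 were Crabp2, a binding protein that carries retinoic acid to the nucleus (0.66), and Cyp26b1, another enzyme that breaks it down (0.66). In KO none of the 27 passed the fold, beside 3.73% of all genes, and the median was -0.02 beside 0.02. Dhrs3, which reduces retinal, was the lowest (-0.39). With correction for bin coverage all 4 medians of the list changed sign, to -0.03 and 0.13 for KO over WT in ESCs and MNs and to -0.14 and 0.05 for MN over ESC in WT and KO, beside -0.07, 0.11, -0.14 and 0.06 over all genes. The directions given for the list thus hold for the uncorrected scale only.

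**Figure D5:**
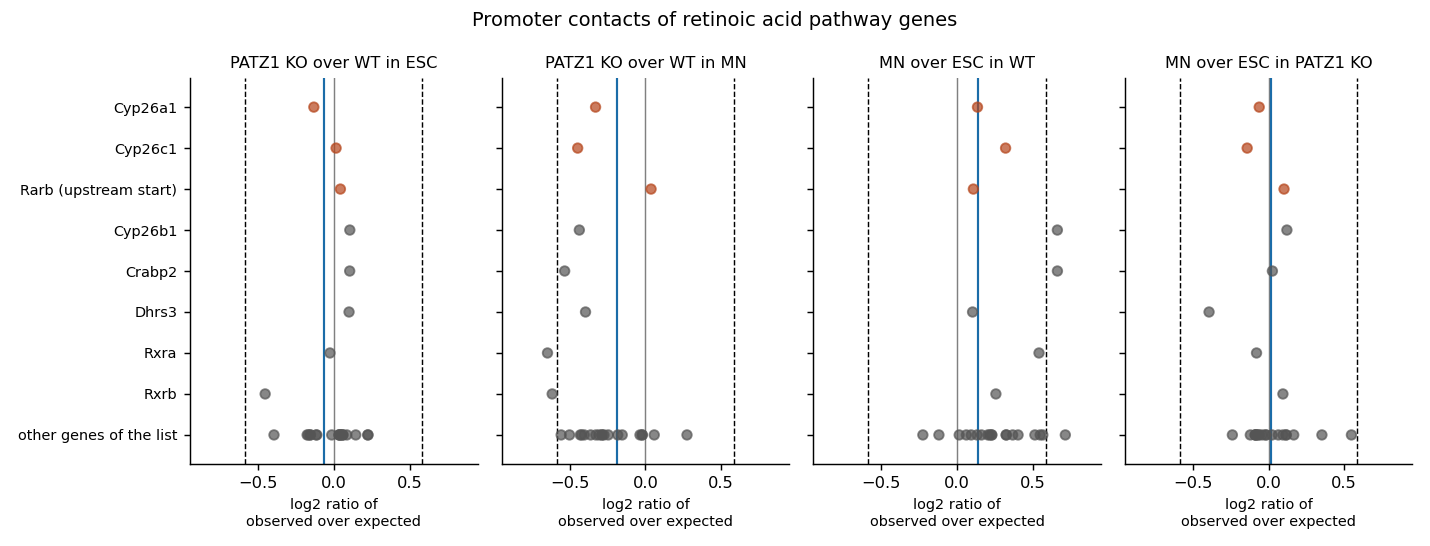
Log2 ratio of observed over expected promoter contacts for 27 genes of the retinoic acid pathway in the 4 comparisons, with Cyp26a1, Cyp26c1 and Rarb (its upstream start) in red, other genes named in the text in grey and the rest of the list together in the bottom row. The blue line is the median of 20683 genes and dashed lines mark 1.5-fold. Rxra and Rxrb pass it for KO over WT in MNs, as do 8.87% of all genes. Crabp2 and Cyp26b1 are among those that pass it for MN over ESC in WT, as do 11.6% of all genes.

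Genes whose promoter levels over the 4 libraries were most like those of the members, by the sum of squared log2 differences, were Pbp2, Itga6 and Lamtor4 for Cyp26a1 (0.0011 to 0.0046) and Vsig8, Hsd17b6 and Acot5 for Cyp26c1 (0.0024 to 0.0037). They were Sprr2e, Fezf1 and Rab32 for the Rarb downstream start (0.0038 to 0.0063) and Cttnbp2, Dpp6 and Yap1 for the upstream start (0.0024 to 0.0042). All lie on other chromosomes than the member they resemble.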

How the data were processed

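Micro-C of 4 samples, 1 per group, was used, with groups taken from the labels. Libraries were mapped and compared for the authors with HiCcompare, WT against PATZ1 KO in each cell state (build mm10 per the submitters' processing notes; aligner and versions not given in the sources used here). The deposited interaction frequencies are whole-number counts per pair of 8 kb bins, not normalized. The deposited adjusted frequencies, a signal normalized jointly between WT and PATZ1 KO, served as an alternative. The deposited log2 ratios, scores and p-values of the authors' own comparison were not used.

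From the counts, observed over expected, insulation and exact intervals (Poisson for levels, Clopper-Pearson for ratios and shares) were computed with Python 3.11.15, numpy 2.4.6, scipy 1.17.1 and GENCODE M21. Genes needed an expected count of at least 50 and at least 20 contacts in each library (20683 of 21755), or, for the long-distance band, at least 10 of each. Intervals reflect counting alone and treat contacts of adjacent bins as independent, which they are not. The scripts were tested on simulated counts. Members, lists, windows and named genes were chosen with earlier results of these data known. Named genes were the members, genes overlapping the windows, the 3 best partners of each start, listed genes past the fold or at either extreme (some are not reported here), the largest pairs past the fold and the 3 most alike genes. The Myof block, the corner pair, the distance band and the parts of Rarb were chosen after their values were seen. Alternatives were other scalings, counts, distances, windows, squares and thresholds.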

Additional observations from a re-analysis of the deposited data

Results flagged for a closer look

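Contacts within the Rarb gene body were flagged because the cell states, and the genotypes, differed in opposite directions with intervals that left out 0. PATZ1 KO over WT was 0.167 in ESCs and -0.129 in MNs (log2 ratios). MN over ESC was 0.226 in WT and -0.0707 in PATZ1 KO. With 1 library per group the difference between these effects was not tested. With correction for bin coverage all 4 changed sign (-0.049, 0.094, -0.070 and 0.074), and the cause was not tested.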

How the results depend on the processing

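No paired analysis was possible because each group had 1 library, so the groups shared fewer than 2 replicate numbers. The alternatives for the Myof block, the long-distance contacts (13 to 22 bins away) and the parts of Rarb were chosen after seeing the data. Of the long-distance ratios and those with the Myof block, all 32 and 24 alternative values lay inside the counting intervals of the reported ones. These intervals are wide and the alternatives reuse the same counts, so this says little about stability. Some ratios with the Myof block still changed sign with correction for bin coverage. With counts scaled to the library total, log2 ratios of the Cyp26 window became -0.11 for PATZ1 KO over WT in ESCs, -0.31 in MNs and 0.18 for MN over ESC in WT, and those of the Rarb window 0.012 for PATZ1 KO over WT in ESCs, 0.029 for MN over ESC in WT and -0.0080 in PATZ1 KO. With the expected number corrected for bin coverage, the Cyp26 window gave 0.079 for PATZ1 KO over WT in MNs, 0.018 for MN over ESC in WT and 0.12 in PATZ1 KO. The Rarb window gave -0.050 and 0.060 for PATZ1 KO over WT in ESCs and MNs and -0.045 for MN over ESC in WT. The same correction gave 0.081 for the Cyp26a1 start and -0.15 for Cyp26c1 (PATZ1 KO over WT in MNs), and -0.049, 0.094, -0.070 and 0.074 for the Rarb gene body in the order of the report. It left 0, 0 and 1 pathway genes past 1.5-fold for PATZ1 KO over WT in MNs and for MN over ESC in WT and PATZ1 KO, beside 1.85%, 3.71% and 1.23% of all genes. Windows widened by 200 kb on both sides gave 0.084 (Cyp26) and 0.086 (Rarb) for MN over ESC in WT, and distances up to 80 kb gave -0.23 for the Rarb downstream start in the same comparison. At the lower fold limit tried, 2, 14, 11 and 3 pathway genes passed in the 4 comparisons, beside 10.1%, 39.7%, 40.98% and 22.9% of all genes. Insulation differences at the starts moved with the square. With the 25-bin square they were, in the order of the 4 comparisons, -0.094, -0.097, 0.19 and 0.19 for Cyp26a1 and -0.15, -0.10, 0.12 and 0.17 for Cyp26c1, -0.32 for the Rarb downstream start (MN over ESC in PATZ1 KO) and 0.046 for the upstream start (PATZ1 KO over WT in MNs). With a square of 13 bins they were -0.21, -0.016 and 0.070 for Cyp26a1 (PATZ1 KO over WT in ESCs, MN over ESC in WT and in PATZ1 KO), -0.28, -0.21, -0.049 and 0.025 for Cyp26c1 in the 4 comparisons, -0.54 for the Rarb downstream start (MN over ESC in PATZ1 KO) and -0.059 for the upstream start (PATZ1 KO over WT in MNs), so that MN over ESC in WT turned at both Cyp26 starts and PATZ1 KO over WT in MNs at the upstream start. Sign also turned for PATZ1 KO over WT at the downstream start in MNs (0.0082 to -0.086) and the upstream start in ESCs (0.027 to -0.067). With 400 kb PATZ1 KO over WT in MNs was -0.024 at the upstream start. With it, MN over ESC was 0.47 and 0.36 for Cyp26a1 and 0.48 and 0.38 for Cyp26c1 in WT and PATZ1 KO. Enriched pairs at a mean count of at least 10 were 11 and 4 in the Cyp26 window and 7 and 3 in the Rarb window, in ESCs and MNs, while no pair reached the mean count of 20. Of tested pairs, the percent past the fold either way was 7.14 to 12.3 as reported. For the 4 comparisons in order it was 20.4, 21.6, 22.01 and 24.7 in the Cyp26 window and 19.6, 19.5, 23.98 and 24.3 in the Rarb window at a mean count of at least 5, beside 20.2, 23.4, 24.55 and 22.6 over the genome. At 20 it was 1.56, 5.56, 3.85 and 3.03, and 1.35, 6.67, 2.04 and 4, beside 2.38, 6.42, 6.57 and 3.69. At 1.5-fold it was 28.6, 35.3, 26.6 and 30.6, and 32.0, 32.1, 36.5 and 32.6, beside 28.47, 36.2, 36.5 and 31.85. The cause of these shifts was not tested, except that a lower fold limit admits more pairs by construction.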
